A study of Rattus norvegicus with 9 samples.

Results

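Ccng1 encodes cyclin G1, and its mRNA was examined in rat prostates together with 8 other genes that p53 is known to activate: Cdkn1a, Mdm2, Bax, Btg2, Phlda3, Sesn1, Zmat3 and Gdf15. Probes were assigned to these 9 genes, of 15163 genes with a symbol on the array, through the accession of each probe. A probe was found for 8 of the 9 genes, and 11 probes in all, with 2 each for Cdkn1a, Mdm2 and Zmat3. No probe could be matched to Sesn1, which is not analysed here. Ccng1 was selected for its difference between BPH and sham on these arrays, so that this difference is given as a description without a test. The question was whether the other targets of p53 followed Ccng1.

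The arrays compared 3 groups of male Sprague Dawley rats, bought at an age of 6 weeks. Sham rats had a sham operation and received corn oil subcutaneously and water by mouth. BPH rats were castrated, received dihydrotestosterone (3 mg/kg per day, subcutaneously) during 4 weeks to enlarge the prostate (benign prostatic hyperplasia), and were given water by mouth. BPH+ghrelin rats had the same operation and androgen, and oral ghrelin (20 nmol/kg per day) during the last 2 weeks. A figure legend of the study names another dose and route for ghrelin than its methods, which are followed here. Ghrelin is a peptide hormone of the stomach. There were 3 arrays per group, and sham rats differed from both other groups in castration and androgen at the same time. Which rats of each group were used on the arrays, and which lobes of the prostate were taken, is not stated in the sources used here.

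The transcription factor p53 is stabilized by DNA damage and other stress and binds to response elements in its target genes. Its targets stop the cell cycle (Cdkn1a, which encodes the cyclin-dependent kinase inhibitor p21, and Btg2), promote apoptosis (Bax), restrain Akt signaling (Phlda3), bind RNA (Zmat3) or are secreted (Gdf15). Mdm2, the ubiquitin ligase that degrades p53, is itself a target and closes a feedback loop. Cyclin G1 lacks a known role as driver of a cell cycle phase, binds protein phosphatase 2A and is linked to Mdm2 through it. An mRNA level of p53 targets is often used as a readout of p53 activity, since p53 itself is controlled mainly through its protein.

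A p53 response element is made of copies of a 10-base motif, the p53 decamer. The 250 bases before the start of Ccng1 and Cdkn1a are shown because both hold such an element, while only Ccng1 stood out in BPH. The sequences are from RefSeq (GRCr8), 5′ to 3′ on the strand of the gene, from chr10:25684877-25685126 (minus strand) and chr20:7150682-7150931 (plus strand), with the element in capitals.
Ccng1: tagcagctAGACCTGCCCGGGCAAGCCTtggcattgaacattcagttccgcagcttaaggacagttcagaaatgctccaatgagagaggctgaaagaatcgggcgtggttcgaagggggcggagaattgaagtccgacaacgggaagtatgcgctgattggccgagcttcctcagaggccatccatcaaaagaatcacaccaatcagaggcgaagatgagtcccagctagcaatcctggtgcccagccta
Cdkn1a: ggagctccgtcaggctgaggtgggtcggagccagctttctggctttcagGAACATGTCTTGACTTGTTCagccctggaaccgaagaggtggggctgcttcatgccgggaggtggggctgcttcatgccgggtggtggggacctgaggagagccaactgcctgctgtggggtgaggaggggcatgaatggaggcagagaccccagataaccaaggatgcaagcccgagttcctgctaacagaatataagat

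Each element consists of 2 abutting decamers, of which 1 matched exactly and the other with 1 mismatch (both strands were searched). The element lies at positions -242 to -223 from the start of Ccng1 and at positions -201 to -182 from the start of Cdkn1a. Windows of 300 bases (250 before and 50 after the start) were present for 7 of the 9 genes, but not for Bax and Zmat3, with 2 windows for Gdf15. An exact decamer was found in 3 of the 8 windows (Ccng1, Cdkn1a and Sesn1), compared to 7.98% of 33469 windows of all genes. The abutting element, with up to 1 mismatch in each decamer, was found in 2 of the 8 windows and in 0.496% of all windows. Of 33 genes with a window in the list of further p53 targets described below, 5 held an exact decamer. The abutting element was found in 2 of these 33 genes, among them Gtse1. This form of the element was chosen after the sequences had been seen, and a match is a description of the letters, not a binding site.

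Across the series, 61.3% of the probes were well above background on sham replicate 2 and 69.5% to 75.03% on the other 8 arrays. Sham replicate 3, BPH replicate 2 and BPH+ghrelin replicate 2 were the middle array of their group for 68.8% to 73.0% of the genes. By their scan times, the BPH arrays shared a scan with BPH+ghrelin replicate 1, and sham replicates 1 and 2 shared a scan with BPH+ghrelin replicates 2 and 3, while sham replicate 3 stood alone. No scan held both sham and BPH arrays. The tissue had the markers of prostate epithelium, with 7 of 7 genes well above background and a summed linear signal of 259515 to 265196 in sham, 194484 to 207241 in BPH and 201212 to 227653 in BPH+ghrelin. Markers of seminal vesicle (6 of 6 detected) had a summed signal of 90286 to 157768 in sham, 715 to 28281 in BPH and 547 to 3881 in BPH+ghrelin, carried by Semg1 and Svs4. In BPH against sham, 4 of the 6 were lower, of which limma called 3 (Svs4, Svs3a and Svs3b), while Svs5 (3.08 in sham and 3.33 in BPH) and Svs6 (4.22 and 5.50) were not lower. Immune markers (4 of 6 detected) summed to 5638 to 25961, 774 to 1866 and 649.5 to 676. In sham, this sum was carried by Cd52, with a mean log2 signal of 13.61 in sham, 7.79 in BPH and 4.93 in BPH+ghrelin. Ptprc (8.49 in sham and 8.53 in BPH) and Cd68 (8.65 and 8.76) were not lower in BPH, while Csf1r was 6.75 and 6.17. The BPH+ghrelin means were 7.71 for Ptprc, 8.37 for Cd68 and 6.49 for Csf1r, and all 4 genes were lower than in sham there, of which limma called Cd52 and Ptprc. Adipocyte markers (3 of 5 detected) varied within groups, from 92.7 to 4630 in sham and from 52.0 to 4301 in BPH+ghrelin. Levels in bulk tissue do not tell fewer cells of a type apart from less RNA per cell, and the part of these tissues in the values below was not tested.

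Ccng1 was higher in BPH than in sham by a wide margin, and intermediate in BPH+ghrelin. The log2 signal of its probe (A_44_P367761), after quantile normalization, was 8.67, 8.41 and 8.61 on the sham arrays. It was 10.89, 11.07 and 11.29 on the BPH arrays and 9.37, 10.24 and 10.79 on the BPH+ghrelin arrays. All BPH arrays lay above all BPH+ghrelin arrays, and these above all sham arrays, without overlap. Group means were 8.56 ± 0.14 in sham, 11.08 ± 0.20 in BPH and 10.13 ± 0.72 in BPH+ghrelin (SD, n = 3), so that the spread was widest with ghrelin. The difference between BPH and sham was 2.52 on the log2 scale (5.74-fold), the 15th highest of 19548 genes tested. Over all settings it was 2.30 to 3.69, the latter with scan as a block, and it was 2.42 to 2.62 when 1 array was left out.

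Compared to sham, Ccng1 was higher in BPH+ghrelin, with a log2 fold change of 1.57 (SE 0.32, 2.97-fold, 95% interval 0.84 to 2.30, limma adjusted p 0.0296). This comparison shares the sham arrays with the difference by which the gene was selected, which favours a higher value. In 6.30% of 19195 genes tested the adjusted p was under 0.05, and Ccng1 was called in each of 8 other settings. The call was lost without sham replicate 3 (adjusted p 0.103), BPH+ghrelin replicate 2 (0.123) or BPH+ghrelin replicate 3 (0.0600), with values of 1.24 to 1.95 over the 6 arrays left out in turn. Within the scan shared by both groups, the 2 BPH+ghrelin arrays were 1.97 above the 2 sham arrays.

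For BPH+ghrelin against BPH, Ccng1 gave a log2 fold change of -0.95 (SE 0.32, 95% interval -1.69 to -0.22) and did not pass the test (limma adjusted p 0.155, unadjusted p 0.0174). The BPH arrays are those on which the gene was selected for its high level, which favours a lower value in BPH+ghrelin. Of 19747 genes, 1.48% were called in this comparison, and 39.2% were without overlap between the groups, Ccng1 included. The size varied between the arrays. BPH+ghrelin replicate 1, scanned with the BPH arrays, was 1.72 below their mean, while the other 2 BPH+ghrelin arrays were 0.57 below it. Adjusted p was 0.110 to 0.383 when 1 array was left out, so that Ccng1 was called in none of these 6 fits.

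**Figure D1:**
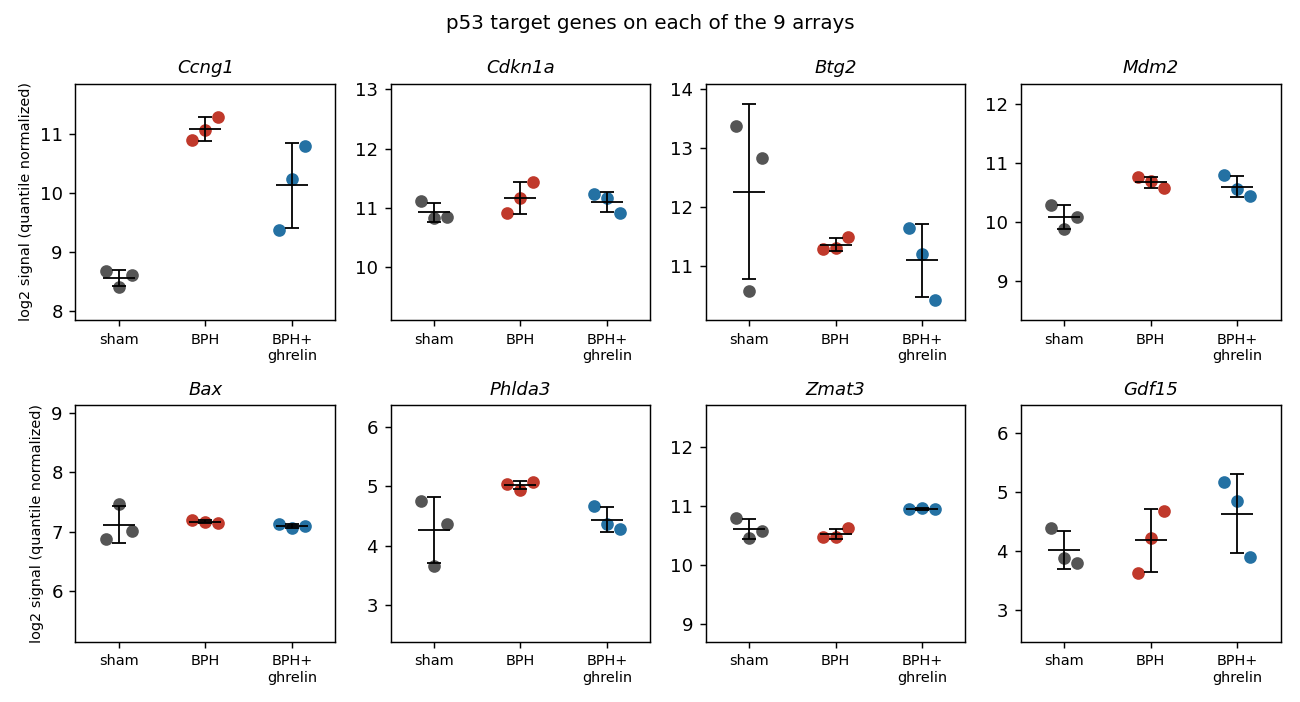
Log2 signal (quantile normalized) of the 8 genes with a probe on each of the 9 arrays. Points are single arrays, horizontal lines the group means and bars the SD (n = 3); every panel spans 4 log2 units. Ccng1 shows separate groups, at 8.41 to 8.67 in sham and 10.89 to 11.29 in BPH, while the groups of Cdkn1a overlap.

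None of the 7 other targets with a probe was called in any of the 3 comparisons (limma adjusted p under 0.05), where 4.33% of all genes tested were called in BPH against sham, 1.48% in BPH+ghrelin against BPH and 6.30% in BPH+ghrelin against sham. At an unadjusted p under 0.05 there were 2, 1 and 2 of the 7 genes in these comparisons, compared to 26.5%, 21.1% and 23.7% of all genes. The median log2 fold change of the 7 genes was 0.16, -0.07 and 0.18, beside 0.04, 0.02 and 0.04 over all genes. Arrays did not overlap for 2 of 7 genes in BPH against sham, both higher, where 17.1% of all genes were higher and 14.2% lower without overlap (31.3% in all). Between BPH+ghrelin and BPH, it was 1 gene higher and 2 lower, beside 19.8% and 19.3% of all genes. Between BPH+ghrelin and sham it was 2 genes higher and 0 lower, beside 17.5% and 12.8% (30.4% in all). On single arrays, the median deviation of the 7 genes from their sham means was -0.02, 0.20 and 0.48 in BPH, where Ccng1 deviated by 2.33, 2.51 and 2.73.

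Among the genes that stop the cell cycle, Cdkn1a was not called in any comparison by either of its probes, which differed from each other. Its brighter probe (A_64_P123895) gave log2 signals of 11.11, 10.82 and 10.84 in sham, 10.90, 11.16 and 11.43 in BPH, and 11.23, 11.16 and 10.91 in BPH+ghrelin. The 3 groups overlapped. The log2 fold change was 0.24 in BPH against sham (SE 0.17, 95% interval -0.15 to 0.64, limma adjusted p 0.386), -0.06 in BPH+ghrelin against BPH (adjusted p 0.857) and 0.18 in BPH+ghrelin against sham (adjusted p 0.579). The other probe (A_44_P914438) was dimmer and more variable, at 8.47, 8.93 and 8.63 in sham, 7.49, 8.51 and 9.26 in BPH, and 9.76, 9.58 and 9.32 in BPH+ghrelin. Its BPH+ghrelin arrays lay above the others, but the difference of 1.13 to BPH (SE 0.39, adjusted p 0.162, unadjusted p 0.0199) and that of 0.88 to sham (adjusted p 0.222) did not pass.

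Btg2, an antiproliferative gene, was bright and unequal within sham, at 13.37, 10.59 and 12.84. It was 11.30, 11.31 and 11.50 in BPH and 11.65, 11.21 and 10.44 in BPH+ghrelin, and sham replicate 2 was as low as the treated arrays. The log2 fold change was -0.90 in BPH against sham (SE 0.65, limma adjusted p 0.399) and -1.17 in BPH+ghrelin against sham (adjusted p 0.323). Without sham replicate 2, which had the lowest share of probes well above background, they were -1.74 (adjusted p 0.0371) and -2.01 (adjusted p 0.0163), both called and opposite in sign to Ccng1. Over all arrays left out in turn, the values were -1.74 to -0.34 and -2.01 to -0.61, with 1 call in each comparison.

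Mdm2 came closest to a call among the 7 genes in BPH against sham. Its brighter probe (A_44_P634946) was at 10.29, 9.89 and 10.09 in sham, at 10.76, 10.70 and 10.57 in BPH and at 10.80, 10.57 and 10.44 in BPH+ghrelin. All arrays of both castrated groups lay above all sham arrays. The differences were 0.59 in BPH against sham (SE 0.15, limma adjusted p 0.0671) and 0.51 in BPH+ghrelin against sham (SE 0.15, adjusted p 0.0844). BPH and BPH+ghrelin differed by -0.07 (adjusted p 0.809). With scaling to the 75th percentile, BPH+ghrelin against sham passed (0.58, adjusted p 0.0423), and without sham replicate 1, BPH against sham passed (0.69, adjusted p 0.0316). The other probe of Mdm2 (A_43_P16885) did not show these differences, with -0.03 in BPH against sham and values between 5.97 and 6.48 on all arrays.

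Bax, which opens the mitochondrial membrane in apoptosis, was at 7.14 to 7.19 in BPH and 7.06 to 7.12 in BPH+ghrelin, and at 6.87, 7.46 and 7.02 in sham. Although the BPH arrays lay above those of BPH+ghrelin, this difference was -0.07 (limma adjusted p 0.829). In BPH against sham it was 0.05, with a 95% interval of -0.32 to 0.41.

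By the root mean square difference of centred log2 values, Phlda3 was the closest of the 7 genes to the profile of Ccng1, but at a low signal. The difference was 0.90, and 0.91 for Mdm2. By correlation over the arrays, Mdm2 was closer (0.72, compared to 0.62 for Phlda3). Phlda3 was at 4.75, 3.65 and 4.37 in sham, at 5.04, 4.94 and 5.08 in BPH and at 4.67, 4.37 and 4.27 in BPH+ghrelin. The BPH arrays lay above all others. However, neither the difference of 0.77 between BPH and sham (SE 0.26, limma adjusted p 0.121) nor that of -0.58 between BPH+ghrelin and BPH (SE 0.26, adjusted p 0.246) passed. Sham replicate 2 was not well above background. Without sham replicate 1, the difference between BPH and sham was called (1.01, adjusted p 0.0319). Over all arrays left out in turn this difference was 0.46 to 1.01, with 1 call. With normexp background correction it was 0.19, without a call (limma adjusted p 0.154).

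Zmat3, which encodes a zinc finger protein that binds RNA, was even within groups, with 10.80, 10.46 and 10.58 in sham and 10.47, 10.47 and 10.62 in BPH. It was 10.95, 10.97 and 10.95 in BPH+ghrelin, above all other arrays. In contrast to Ccng1, the BPH+ghrelin arrays were highest. The difference was 0.43 to BPH (SE 0.13, limma adjusted p 0.117) and 0.34 to sham (SE 0.12, adjusted p 0.140). With scaling to the 75th percentile it was 0.60 to BPH and called (adjusted p 0.0440). Within the scan of the BPH arrays, BPH+ghrelin replicate 1 was 0.42 above them, and the other 2 arrays were 0.44 above them. The other probe (A_64_P115928) gave 0.04 in BPH+ghrelin against BPH (adjusted p 0.923).

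Gdf15, a secreted stress cytokine, was near the lower end of detection, at 4.39, 3.89 and 3.79 in sham, 3.63, 4.22 and 4.68 in BPH, and 5.16, 4.85 and 3.89 in BPH+ghrelin. The groups overlapped. Log2 fold changes were 0.16 in BPH against sham (limma adjusted p 0.811), 0.46 in BPH+ghrelin against BPH (adjusted p 0.513) and 0.61 in BPH+ghrelin against sham (adjusted p 0.369). On 1 of 3 sham arrays, the probe was not well above background.

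**Figure D2:**
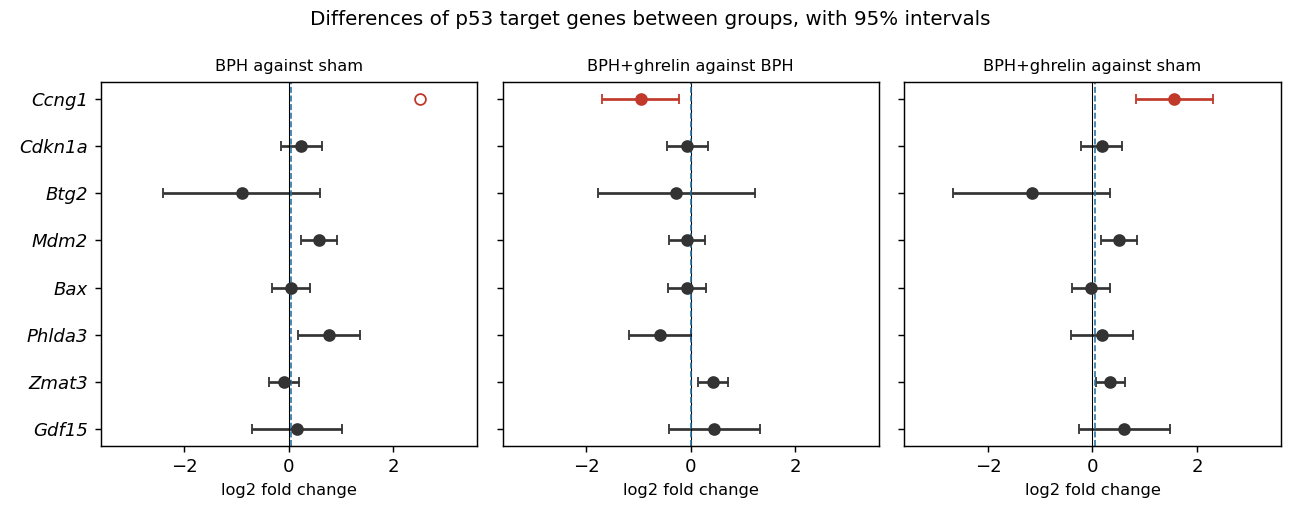
Log2 fold changes of the 8 genes in the 3 comparisons, with 95% intervals from limma. Ccng1 is in red, and its open point in BPH against sham (2.52) has no interval as the gene was selected by it; the dashed blue line is the median of all genes. The intervals of Cdkn1a and Bax lie around 0 in each panel.

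Genes were then ordered by how closely their profile over the 9 arrays followed that of Ccng1, measured as the root mean square difference of centred log2 values over 20108 genes. As this uses the difference by which Ccng1 was selected, it is a description. The 5 closest genes were Dmkn (0.29), which encodes the epidermal protein dermokine, Dio2 (0.31), a deiodinase that activates thyroid hormone, Ptcd2 (0.39), which encodes a mitochondrial RNA-binding protein, Zfp597 (0.51), a zinc finger gene, and Gstm1 (0.51), a glutathione transferase. Ptcd2 was at 7.14, 6.66 and 6.89 in sham, 8.85, 8.61 and 8.59 in BPH, and 7.34, 7.78 and 8.29 in BPH+ghrelin. Gstm1 was at 10.67, 9.92 and 10.44, at 12.67, 12.37 and 12.04, and at 11.51, 11.47 and 11.35. The probes of Dmkn and Dio2 were not well above background on any sham array, that of Dio2 on only 1 of 3 BPH+ghrelin arrays, and that of Zfp597 on only 1 of 3 sham arrays. The distances and ranks of these 3 genes therefore rest in part on signals near the limit of detection. Of the p53 targets, Rrm2b and Gadd45a were the closest, at ranks 178 and 184 of 20108. Of the 7 other targets described above, Phlda3 was at rank 1482, Mdm2 at 1663, Cdkn1a at 5352, Bax at 9135, Zmat3 at 9826, Gdf15 at 12377 and Btg2 at 19362.

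**Figure D3:**
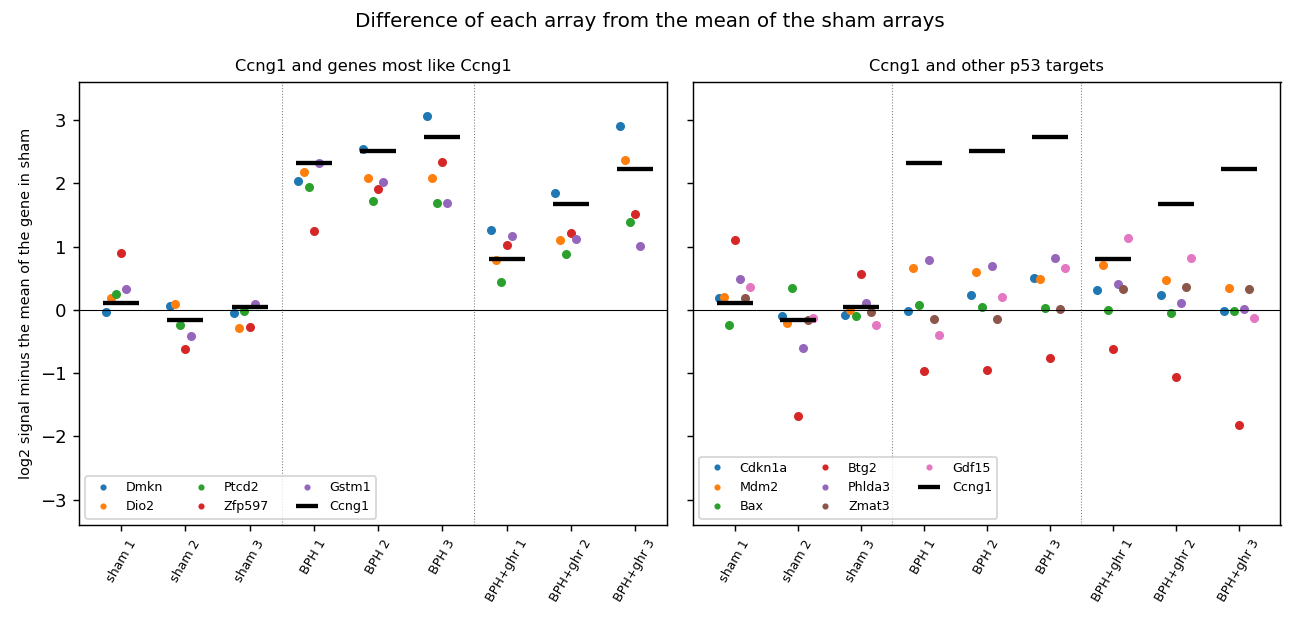
Difference of each array from the mean of the 3 sham arrays (log2 signal), for Ccng1 (black bars) with the 5 genes most like it (left) and with the 7 other p53 targets (right). Ccng1 lies at 2.33 to 2.73 on the BPH arrays, where Dmkn is the only gene on the left that lies above it on any of these 3 arrays, and the p53 targets on the right lie below it on each of them.

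A list of 40 further p53 targets was also examined, of which 32 had a probe and 31 could be tested. In BPH against sham, 1 was called higher and 1 lower, where 2.15% of all genes were called higher and 2.18% lower. In total 19 values were positive and 12 negative, and the median was 0.07 beside 0.04 over all genes. Rrm2b, a ribonucleotide reductase subunit that supplies nucleotides for DNA repair, was at 4.98, 4.23 and 4.63 in sham and at 6.01, 5.79 and 5.68 in BPH. It rose by 1.21 (SE 0.21, 2.32-fold, limma adjusted p 0.0230). With normexp background correction it was 0.45, still called (adjusted p 0.0293). The call was lost without sham replicate 3 (adjusted p 0.0942) or without any BPH array (0.0565 to 0.113). Cmbl, a hydrolase gene, fell by 3.64 (SE 0.29, 12.4-fold, adjusted p 0.00132), from 11.79, 12.80 and 12.25 to 9.06, 8.70 and 8.18. It was called without each array in turn, and was opposite in direction to Ccng1. With scan as a block, the values were 0.87 for Rrm2b (adjusted p 0.781) and -3.89 for Cmbl (0.286), and neither was called.

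With ghrelin added to BPH, 0 of the 31 genes were called higher and 2 lower, beside 0.496% and 0.987% of all genes, and the median was -0.05. Plk2, a polo-like kinase, was at 6.57, 6.07 and 5.19 in BPH and at 3.78, 3.69 and 3.73 in BPH+ghrelin. It fell by 2.21 (SE 0.39, limma adjusted p 0.0390). This call was kept when BPH replicate 3 was left out, and lost without any of the other 5 arrays (adjusted p 0.0876 to 0.203). With normexp background correction the difference was -0.66, without a call (adjusted p 0.0633). Nor was it called without the filter on dim probes (0.0569), with the replicate number as a block (0.0795) or with scan as a block (0.344). The highest value of the list was 1.13 for Gtse1 (SE 0.47, adjusted p 0.221).

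Against sham, 4 genes of the list were called higher and 3 lower, beside 3.00% and 3.30% of all genes, in BPH+ghrelin, and the median was 0.11. Rrm2b was at 6.14, 5.86 and 5.71 in BPH+ghrelin and rose by 1.29 (SE 0.21, limma adjusted p 0.0147). Gadd45a, a gene of growth arrest, was at 11.57, 10.56 and 11.27 in sham and 12.16, 12.16 and 12.21 in BPH+ghrelin, and rose by 1.04 (SE 0.23, adjusted p 0.0402). In BPH, Gadd45a was at 12.25, 12.09 and 12.07, and its difference to sham of 1.00 narrowly missed the threshold (adjusted p 0.0543). Pcna, the sliding clamp of DNA replication and repair, rose by 0.82 (SE 0.14, adjusted p 0.0191), from 10.94, 10.68 and 10.75 to 11.80, 11.61 and 11.40. Gtse1, which is expressed in S and G2 phase and restrains p53, rose by 2.04 (SE 0.47, adjusted p 0.0433), with 2 of 3 sham arrays well above background. Plk2 fell by 1.66 (adjusted p 0.0438) and Cmbl fell by 3.75 (adjusted p 0.000723). Of these 6 genes, Cmbl was called without each array in turn, whereas the other 5 lost the call without sham replicate 3 (adjusted p 0.0633 to 0.148), BPH+ghrelin replicate 1 (0.0543 to 0.133) or BPH+ghrelin replicate 2 (0.0687 to 0.154). In addition, Plk2 lost it without sham replicate 1 (0.0710), Gtse1 without sham replicate 2 (0.0565), and Plk2 and Gadd45a without BPH+ghrelin replicate 3 (0.109 and 0.106). With scan as a block, Cmbl and Ccng1 stayed called (adjusted p 0.0292 and 0.0472), but not the other 5 genes (0.176 to 0.295). Without the filter on dim probes, Plk2, Gadd45a and Gtse1 were not called (0.0640 to 0.0700), and with the replicate number as a block these and Pcna were not (0.0590 to 0.0940). Normexp background correction lowered the values to 0.50 for Rrm2b, 0.86 for Gtse1 and -0.34 for Plk2, the last without a call (0.215). Gtse1 was not called with scaling to the 75th percentile either (0.0509).

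**Figure D4:**
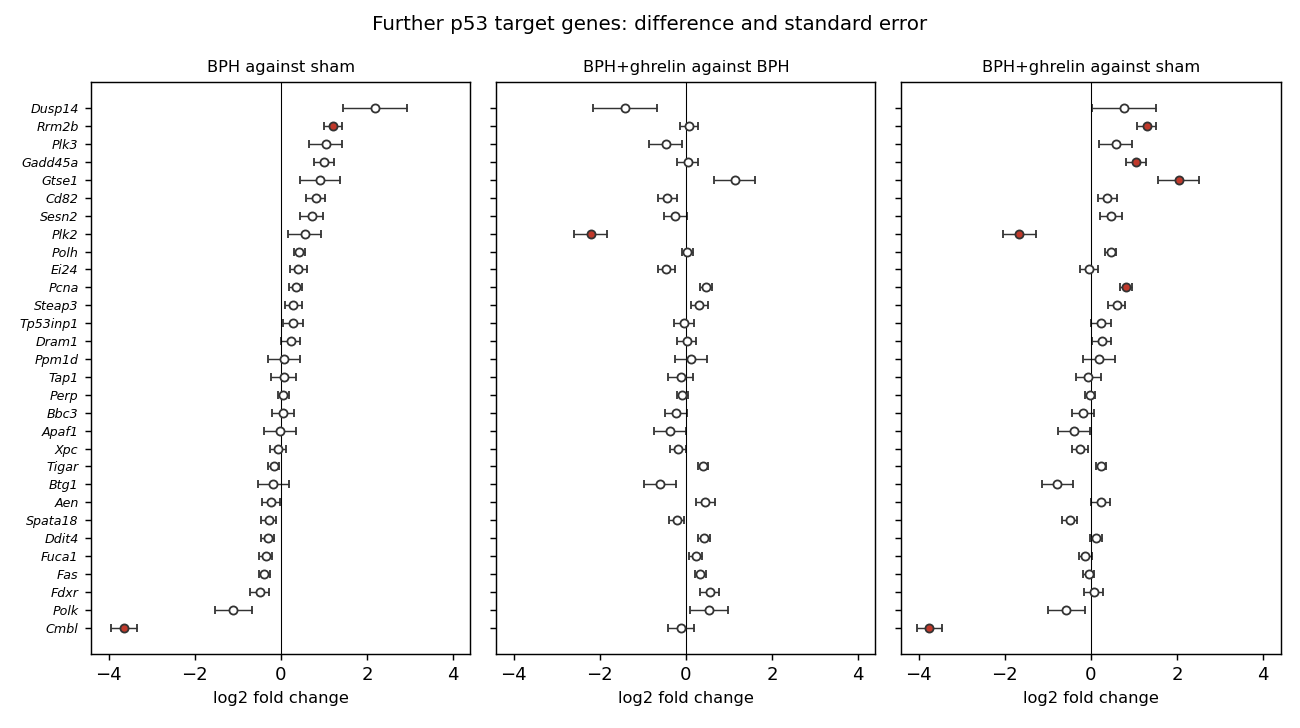
Log2 fold changes of 30 of the 31 further p53 targets in the 3 comparisons, in the order of BPH against sham. Bars are standard errors, and filled points have a limma adjusted p under 0.05 (2, 1 and 6 genes); Cmbl is lowest at -3.64 in the left panel, and 18 of the 30 values there are above 0.

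Regulators of p53 were compared in the same way, with 13 of 16 genes tested. Only Usp7, which encodes a deubiquitinase of Mdm2 and p53, was called, and only in BPH against sham, where 4.33% of all genes were called (1.48% and 6.30% in the other comparisons). It was at 10.42, 10.13 and 10.35 in sham, at 10.98, 10.88 and 10.80 in BPH and at 10.45, 10.39 and 10.39 in BPH+ghrelin. The BPH arrays were highest, as in Ccng1, but unlike in Ccng1 the BPH+ghrelin arrays overlapped with those of sham. Usp7 rose by 0.59 in BPH against sham (SE 0.12, limma adjusted p 0.0395). This call was lost without sham replicate 3 (adjusted p 0.127) or any BPH array (0.0782 to 0.171). It was made in 4 of 8 other settings, but not with scaling to the 75th percentile (0.0529), without the filter on dim probes (0.0566), with the replicate number as a block (0.0878) or with scan as a block (0.782). BPH+ghrelin differed from BPH by -0.47 (adjusted p 0.0941). Mdm4, which inhibits p53 together with Mdm2, was at 6.13 to 6.23 in sham, 6.50 to 6.73 in BPH and 6.05 to 6.39 in BPH+ghrelin. Its differences of 0.42 in BPH against sham (adjusted p 0.0987) and -0.40 in BPH+ghrelin against BPH (adjusted p 0.146) did not pass. The gene of the DNA damage kinase Atm gave 1.50 in BPH against sham (adjusted p 0.250), with sham replicate 2 at 0.87 and not well above background, and -0.96 in BPH+ghrelin against BPH (adjusted p 0.500). In BPH against sham, Atm was 0.43 to 2.17 over the arrays left out in turn. With normexp background correction it was 0.16 (limma adjusted p 0.334). The lowest value in BPH against sham was that of Tp73, a p53 homologue (-0.84, adjusted p 0.170), and the highest in BPH+ghrelin against sham that of Cdkn2a, whose product ARF inhibits Mdm2 (0.97, adjusted p 0.101).

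Genes related to cyclin G1 by sequence or by binding were Ccng2 (cyclin G2), Ccni, Gak and the phosphatase subunits Ppp2r5a, Ppp2r5b and Ppp2r5c. All 6 were tested, and limma called 0 of them in each comparison, with 2, 2 and 0 at an unadjusted p under 0.05. Over all genes, 4.33%, 1.48% and 6.30% were called, and 26.5%, 21.1% and 23.7% had an unadjusted p under 0.05. Ccng2 was at 9.33, 6.84 and 8.75 in sham, 9.08, 8.89 and 8.56 in BPH, and 8.49, 8.45 and 8.41 in BPH+ghrelin. Its log2 fold change in BPH against sham was 0.54 (adjusted p 0.543), with a 95% interval of -0.71 to 1.79. Without sham replicate 2 its value was -0.20. Ppp2r5b, a regulatory subunit of protein phosphatase 2A, gave 0.54 in BPH against sham (adjusted p 0.139) and -0.56 in BPH+ghrelin against BPH (adjusted p 0.171).

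The neighbours of Ccng1 in the gene order of RefSeq were also read. Nudcd2, next to it, gave 0.19 in BPH against sham (limma adjusted p 0.435), followed by Hmmr (0.22, adjusted p 0.859) and Mat2b (0.07, adjusted p 0.835). None of the 3 tested neighbours was called in the other comparisons.

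Finally, 12 cell cycle genes that p53 is known to lower through p21 were examined, of which 9 could be tested. Of these, 8 were well above background on all 9 arrays, while Aurkb was not on any sham array and entered both comparisons with sham only through the other group. The 8 genes had positive values in each comparison, with a median of 0.54 in BPH against sham, 1.39 in BPH+ghrelin against BPH and 2.00 in BPH+ghrelin against sham, beside 0.04, 0.02 and 0.04 over all genes. The limma test called 0, 0 and 3 of the 8, with 0, 6 and 7 at an unadjusted p under 0.05. The shares over all genes were 4.33%, 1.48% and 6.30% called, and 26.5%, 21.1% and 23.7% at an unadjusted p under 0.05. The highest values were 1.31 for Ccnb2, cyclin B2, in BPH against sham (adjusted p 0.256) and 1.80 for Ccna2 in BPH+ghrelin against BPH (adjusted p 0.124). The genes called in BPH+ghrelin against sham were Ccna2 (cyclin A2), Plk1 (a mitotic kinase), Birc5 (survivin) and, besides these 3 of the 8, Aurkb (a kinase of chromosome segregation). Ccna2 was at 7.51, 6.35 and 7.13 in sham, 6.59, 7.87 and 8.63 in BPH, and 10.03, 9.54 and 8.92 in BPH+ghrelin. It rose by 2.50 (SE 0.54, adjusted p 0.0355), with BPH arrays that reached from within the range of sham to above it. Plk1 rose by 2.01 (adjusted p 0.0384) and Birc5 by 1.79 (adjusted p 0.0476). Aurkb, not well above background in sham, was at least 3.17-fold higher. Its call (adjusted p 0.0461) is no support, as Aurkb passed the filter only through the BPH+ghrelin arrays. Ccna2, Plk1 and Birc5 were still called without sham replicate 1, but not without any of the other 5 arrays (adjusted p 0.0559 to 0.156). Aurkb was called in none of these 6 fits (0.0525 to 0.147). Ccna2 and Plk1 were called in 5 of 8 other settings, Birc5 in 4 of 8 and Aurkb in 2 of 7. None of the 4 was called without the filter on dim probes (0.0578 to 0.0746), with the replicate number as a block (0.0855 to 0.105) or with scan as a block (0.258 to 0.330). Birc5 and Aurkb were not called with scaling to the 75th percentile either (0.0559 and 0.0747). With normexp background correction, Birc5 was 1.1 and called, whereas Aurkb was 0.36 and not called (0.106).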

How the data were processed

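Total RNA of rat prostates had been hybridized to Agilent one-colour arrays, 1 array per sample. The intensities deposited by the authors came from Feature Extraction 11.0.1.1, which had subtracted the background and detrended the signal, without normalization between arrays. The authors also deposited log2 values after quantile normalization, used here as an alternative. There were 44254 spots per array (42877 without controls), and 0 were saturated. Outlier spots (313 to 741 per array) were removed, the spots of a probe were averaged, and the log2 signals of 30356 probes were quantile normalized over the 9 arrays, the normalization that the methods give. RefSeq genes (GRCr8) could be assigned to 17998 probes (59.3%) by accession. The array annotation belongs to another assembly (rn4), so that no coordinates were taken from it.

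Probes entered a comparison if 3 or more of its 6 arrays were well above background, and the brightest probe stood for a gene. A gene can pass this filter through the higher group alone, and counts of called list genes are no support where it did. The 3 groups were fitted with limma 3.58.1 (R 4.3.3; lmFit, eBayes) with Benjamini-Hochberg adjustment over all genes tested, and a call is an adjusted p under 0.05. Error bars and intervals rest on 3 arrays per group, which limits their precision. Per the study, the arrays of a group are from separate rats, and if so, p values measure the spread between rats. In each group, however, a single array lay between the others for 68.8% to 73.0% of the genes. Whether the arrays of a group are independent was not tested. If they are not, the spread is understated and the p values are too small. A gene not well above background on any array of a group is given as a bound against the lowest signal well above background. In simulated data with 200 changed genes, 39% to 45% of 2-fold and 73% to 86% of 4-fold changes were called over the 3 comparisons. Of the calls, 4.27% to 5.93% were false. The simulated noise was independent between genes and between arrays and held no scan effect, so that these shares need not hold for the real arrays.

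The genes, lists and tests were chosen with earlier results of these data known. Named are the 9 targets, Mdm4, Atm and Ccng2, the called genes of each list (up to 5 per direction, or the extreme value where none was called), and the 5 genes most like Ccng1. The neighbours of Ccng1 were added. Some genes of the lists are counted but not reported here by name. Marker lists of 8 tissues and cell types were also summed. Those without a value in the results were smooth muscle (median linear sum 12234 in sham, 13240 in BPH and 8237 in BPH+ghrelin), striated muscle (535, 346 and 278), fibroblasts (10693, 13684 and 12111) and general epithelium (55668, 60311 and 49965). Alternatives tried were 75th percentile scaling, normexp background correction (offset 50; median signals, as the scanner output holds no mean signal), dropping the filter on dim probes, filtering on all 6 arrays, averaging the probes of each gene, replicate number or scan as a block, the deposited matrix and each array left out in turn. The other probe of a gene was added after the data had been seen.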

Additional observations from a re-analysis of the deposited data

How the results depend on the processing

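The number of all genes called depended on the processing. In BPH against sham it was 847, compared to 533 without the filter on dim probes, 243 with the replicate number as a block, 2 with scan as a block, and 119 to 3069 when 1 array was left out. Between BPH+ghrelin and BPH it was 293, compared to 517 with scaling to the 75th percentile, 195 without the filter, 17 with the replicate block, 2 with the scan block, and 3 to 399 with 1 array left out. Between BPH+ghrelin and sham it was 1210, compared to 803 without the filter, 461 with the replicate block, 84 with the scan block, and 222 to 1926 with 1 array left out. With scaling to the 75th percentile, 287 genes were called higher and 611 lower in BPH against sham (421 and 426 otherwise), and 244 and 273 in BPH+ghrelin against BPH (98 and 195 otherwise). This scaling moved the median log2 fold change of all genes from 0.04 to -0.09 in BPH against sham, from 0.02 to 0.10 in BPH+ghrelin against BPH, and from 0.04 to -0.0015 in BPH+ghrelin against sham.

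Of the 7 targets other than Ccng1, 0 were called in BPH against sham in each of 8 settings, and 0 to 2 with 1 array left out. Between BPH+ghrelin and BPH, 1 was called with scaling to the 75th percentile and 0 in the other 7 settings and with any array left out. For BPH+ghrelin against sham it was 1 with this scaling, and 0 to 1 with 1 array left out. Of the 31 further targets, 2 were called in BPH against sham, compared to 3 with normexp, 0 with the scan block and 1 to 8 with 1 array left out. Of these targets, 2 were called in BPH+ghrelin against BPH, compared to 0 with normexp, without the filter, with the replicate block and with the scan block, 1 with the filter on all 6 arrays and with the deposited matrix, and 0 to 2 with 1 array left out. The full range over the 8 other settings was 0 to 3 in this comparison. There were 7 calls in BPH+ghrelin against sham, compared to 4 without the filter, 2 with the replicate block, 1 with the scan block and 1 to 8 with 1 array left out.

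The deviations of same-numbered arrays of different groups had correlations of -0.13 to 0.25 over genes, the highest between sham replicate 1 and BPH+ghrelin replicate 1. For arrays of different number the range was -0.28 to 0.30, with both ends between sham and BPH+ghrelin arrays. The number was therefore not taken as a pairing, and the source of these shared deviations was not tested. The replicate block left Ccng1 called in BPH+ghrelin against sham (adjusted p 0.0492). Some small differences changed sign. In BPH against sham, Gdf15 gave -0.056 with scaling to the 75th percentile, -0.029 with normexp and -0.75 with the scan block. The mean of the probes gave -0.0053 for Cdkn1a and 0.076 for Zmat3, the scan block -0.045 for Bax, and the other probe -0.027 for Mdm2, -0.25 for Cdkn1a and 0.24 for Zmat3. For BPH+ghrelin against BPH, scaling to the 75th percentile gave 0.11 for Cdkn1a and 0.086 for Mdm2, and the scan block 0.069, 0.12 and 0.28 for Cdkn1a, Mdm2 and Btg2. Cdkn1a was 0.53 with the mean of its probes and 1.13 with its other probe. For BPH+ghrelin against sham, Phlda3 gave -0.0073 with scaling to the 75th percentile and -0.017 with normexp, Mdm4 -0.10 with this scaling, Atm -0.0028 with the deposited matrix, and Mdm2 -0.033 with its other probe. With 1 array left out, ranges that crossed 0 in BPH against sham were -0.076 to 0.22 for Bax, -0.17 to 0.0061 for Zmat3, -0.20 to 1.05 for Ccng2 and -0.094 to 0.43 for Gdf15. Ranges in BPH+ghrelin against BPH were -0.19 to 0.070 for Cdkn1a, -0.17 to 0.0070 for Mdm2 and -0.55 to 0.061 for Btg2. Ranges in BPH+ghrelin against sham were -0.15 to 0.15 for Bax, -0.12 to 0.43 for Phlda3, -0.52 to 1.22 for Atm, -0.59 to 0.66 for Ccng2 and -0.074 to 0.098 for Mdm4. The cause of these changes was not tested. With 3 arrays per group, and no scan that held both sham and BPH arrays, scan and group cannot be told apart in BPH against sham except through the BPH+ghrelin arrays. The scan block in BPH+ghrelin against BPH rests on BPH+ghrelin replicate 1 alone.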
